A study of Mus musculus with 6 samples.

Results

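Of the 36 genes chosen for serine, glycine and one-carbon metabolism and for the targets of the stress transcription factor ATF4, 35 had a row among the 26187 genes of the deposited tables. Stc2, which encodes the secreted glycoprotein stanniocalcin 2, was not analysed here. Members were matched to the tables by gene symbol. All cells were MC3T3-E1, a pre-osteoblast line derived from mouse calvaria, kept for 2 days in osteoconductive (OC) medium, which contains serum, ascorbic acid and β-glycerophosphate. The PAKG group, 3 samples, was given small biodegradable microparticles (PAKG–8diol–PEG(S) MPs, dosed at 30 μg/mL) of a polyester built from α-ketoglutarate (AKG), an octanediol and polyethylene glycol. The OC group, 3 samples, received no particles. The samples analysed here hold no group with other particles or with soluble AKG, so an effect of particle uptake and an effect of AKG cannot be told apart. The methods describe triplicate wells for cell experiments in general, but no source ties the 3 libraries of a group to separate wells or to repeats of the experiment. The p-values below can speak only to the variation among these 6 libraries, part or all of which may be technical.

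Cells make serine from a glycolytic intermediate, and serine hydroxymethyltransferases then split serine into glycine and a one-carbon unit carried by folate. Those units feed purine and thymidylate synthesis and, through the methionine cycle, the methylation of DNA, RNA, proteins and small molecules. ATF4 is a transcription factor whose protein is made mainly when the initiation factor eIF2α is phosphorylated, for instance during amino acid shortage or endoplasmic reticulum stress, and it drives many genes for amino acid synthesis and uptake. Because ATF4 is controlled largely at translation, its mRNA need not follow its activity. In osteoblasts, ATF4 and amino acid supply are known to matter for the synthesis of collagen, which is rich in glycine and proline.

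FPKM, a fragment count scaled to transcript length and library size, summed to 289675.9 to 325818.3 per library, and the steps of low values gave an estimated 33100000 to 42600000 fragments per library. The test was limma on log2(FPKM + 0.1), run over the 12590 genes whose mean FPKM reached 0.5, and a gene counted as higher or lower with PAKG at a Benjamini-Hochberg adjusted p under 0.05. Differentially expressed genes also had to change by at least 2-fold, the thresholds of the study. All 10 osteoblast markers listed had a row, and 8 of them were higher with PAKG, 1 (Spp1) was lower and 1 (Col1a2) did not pass. Their summed level was 5907 to 6946 FPKM in OC and 8630 to 9251 in PAKG. Sp7, a transcription factor of the lineage, lay at 33.1 to 35.2 FPKM in OC and 84.2 to 90.9 in PAKG, whereas Spp1, which encodes osteopontin, lay at 241.9 to 287.7 and 173.2 to 208.4. Markers of other cell types were low. Of 6 macrophage markers 3 had a row, with a summed level of 0.62 to 0.70 FPKM in OC and 0.62 to 0.98 in PAKG, and Ptprc was at 0 to 0.01. Of 5 endothelial markers 2 had a row, summing to at most 0.03 FPKM in either group. The 5 adipocyte markers summed to 0.02 and 0.06 FPKM in OC replicates 1 and 2, to 1.57 in OC replicate 3, and to at most 0.04 in PAKG. Of 5 skeletal muscle markers 4 had a row, summing to 0.93 to 1.19 FPKM in OC and 1.92 to 1.99 in PAKG. Among them Acta1 was higher and past the 2-fold threshold, at 0.343 ± 0.0666 FPKM in OC and 1.10 ± 0.0153 in PAKG (log2 fold change 1.45, limma adjusted p = 0.00282).

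Genes of serine synthesis, of the folate one-carbon cycle and of several ATF4 targets were lower with PAKG MPs. Atf4 mRNA itself did not pass the limma test, at a log2 fold change of -0.04 (interval -0.27 to 0.18). That interval overlaps the intervals of some of these lower genes but not of others, and their difference from Atf4 was not tested. Of the 32 members tested, 14 were lower, none was higher and 18 did not pass the limma test. At an unadjusted p under 0.05, 18 were lower and 2 higher. Among all genes tested, 8.73% were lower and 5.97% higher, and at the unadjusted threshold 16.8% were lower and 12.0% higher. At both thresholds the share of lower genes was larger among the members than over this background. The members were chosen with earlier results of these data known, so these larger shares are not independent of that choice. In these bulk samples, fewer cells of a kind and less RNA per cell cannot be told apart. The 14 genes were Phgdh, Psat1, Shmt1, Shmt2, Mthfd1, Mthfd2, Mthfd1l, Ahcy, Cth, Gatm, Asns, Trib3, Chac1 and Sesn2. Their PAKG means were 0.435 to 0.842 of their OC means. Only Cth and Gatm reached the 2-fold threshold, 2 of 32, against 1.45% of all genes tested. In 17 of the 32 members all 3 PAKG libraries lay below all 3 OC libraries, as they did in 19.6% of all genes. In 3 members (Amt, Gamt and Nupr1) they lay above all 3 OC libraries, as they did in 1727 of the 12590 genes tested. The median log2 fold change was -0.27 over the 32 members and -0.03 over all genes.

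How many members passed depended on scaling and on single libraries. With each library rescaled to a common total, 11 members were lower and 2, Gamt and Nupr1, were higher. That rescaling also turned the split over all genes from 751 higher and 1099 lower to 871 higher and 764 lower. With the replicate number as a block, 18 members were lower, adding Psph, Aldh1l2, Gcsh and Slc1a4, and 2 higher, Gamt and Nupr1, while 17.1% of all genes were lower and 12.3% higher. Leaving out PAKG replicate 3 gave 8 lower members, leaving out OC replicate 1 gave 9, and leaving out OC replicate 3 gave 7. The share of all genes called lower fell as well in these fits, from 8.73% to 3.93%, 4.91% and 4.11%. Phgdh, Psat1, Ahcy, Cth and Gatm were called lower under all 16 alternatives tried, and the other 9 lost the call in at least 1.

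**Figure D1:**
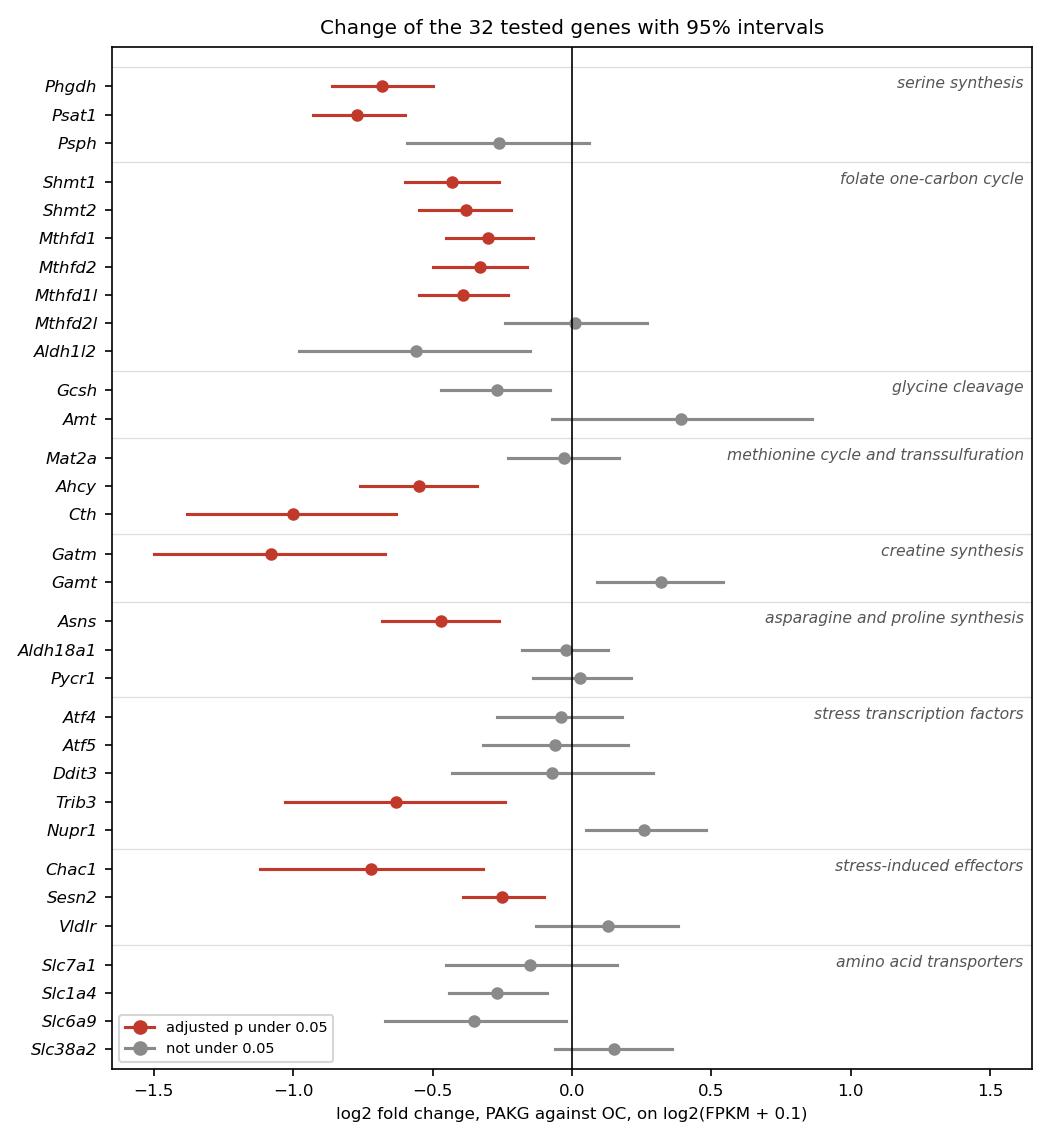
Log2 fold change of the 32 tested members, PAKG against OC, on the log2(FPKM + 0.1) scale, grouped by role. Points are limma estimates, bars are 95% intervals, and red marks the 14 genes with an adjusted p under 0.05, all of them left of 0.

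The genes of the first steps from glycolysis to serine were lower with PAKG MPs. Phgdh, the dehydrogenase of the first step (ENSMUSG00000053398, chromosome 3, 98313170 to 98339990 on GRCm38, the build of all coordinates), lay at 107.95, 91.97 and 99.49 FPKM in OC replicates 1 to 3 and at 62.77, 59.95 and 63.45 FPKM in PAKG replicates 1 to 3. The groups did not overlap, and the means of 99.8 ± 7.99 and 62.1 ± 1.86 FPKM (SD, n = 3) gave a log2 fold change of -0.68 (standard error, SE, 0.08; limma adjusted p = 0.00164). Psat1 encodes the aminotransferase of the second step, a reaction that turns glutamate into AKG (ENSMUSG00000024640, chromosome 19, 15904678 to 15947337). Its levels were 60.89, 55.46 and 61.87 FPKM in OC and 34.38, 34.59 and 35.66 FPKM in PAKG. Every PAKG library was thus below every OC library, with a PAKG mean 0.587 of the OC mean (log2 fold change -0.77 with an SE of 0.07, adjusted p = 0.000686). Psph, the phosphatase of the last step, was expressed far lower, at 4.77 ± 0.569 FPKM in OC and 3.97 ± 0.613 in PAKG, and its groups overlapped. Its log2 fold change of -0.26 did not pass the test (95% interval -0.59 to 0.06, adjusted p = 0.26). It overlaps the abundant gene Cct6a on the opposite strand, and whether strand was used in counting is not given in the sources used here. Summed over these 3 genes, FPKM was 151.6 to 174.1 in OC and 97.9 to 103.2 in PAKG.

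Of the 7 folate genes, 5 were lower at the mRNA level, among them genes for cytosolic and for mitochondrial enzymes. Shmt2, the mitochondrial serine hydroxymethyltransferase (ENSMUSG00000025403, chromosome 10, 127517123 to 127522444), lay at 56.16, 52.00 and 54.63 FPKM in OC and 42.07, 39.34 and 43.26 FPKM in PAKG. No library of one group reached the other (log2 fold change -0.38 with an SE of 0.07, adjusted p = 0.0105). Its cytosolic counterpart Shmt1 (ENSMUSG00000020534, chromosome 11, 60788104 to 60811718) was far less abundant on the FPKM scale, at 5.60, 5.38 and 5.55 FPKM in OC and 3.96, 4.21 and 4.02 FPKM in PAKG. Its log2 fold change was -0.43 (SE 0.07, adjusted p = 0.00839), and its groups were apart as well. It overlaps Smcr8, of similar level, on the opposite strand. The call of Shmt1 was lost without PAKG replicate 3 and that of Shmt2 without OC replicate 3.

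Mthfd1l, the mitochondrial enzyme that releases formate from folate (ENSMUSG00000040675, chromosome 10, 3973118 to 4167081), lay at 30.85, 30.99 and 29.05 FPKM in OC and 23.13, 24.26 and 21.93 FPKM in PAKG. All PAKG values were below all OC values (log2 fold change -0.39 with an SE of 0.07, adjusted p = 0.0099). Mthfd2, the mitochondrial methylene-tetrahydrofolate dehydrogenase and a known ATF4 target (ENSMUSG00000005667, chromosome 6, 83305691 to 83325908), lay at 30.97, 27.69 and 28.70 FPKM in OC and 23.62, 21.79 and 23.93 FPKM in PAKG. The groups were apart, with a log2 fold change of -0.33 (SE 0.07, adjusted p = 0.0244). Mthfd1, the cytosolic enzyme that joins formate to folate (ENSMUSG00000021048, chromosome 12, 76255298 to 76319803), lay at 24.58, 24.44 and 24.16 FPKM in OC and 19.03, 21.12 and 19.40 FPKM in PAKG. It too had no overlap (log2 fold change -0.30 with an SE of 0.07, adjusted p = 0.0257), but it lost its call on rescaling to a common total, with or without mitochondrial genes, and without PAKG replicate 1 or 3 or any single OC replicate. Mthfd2 lost its call without replicate 1 or 3 of either group, and Mthfd1l without PAKG replicate 3.

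The remaining folate members, Aldh1l2 and Mthfd2l, did not pass the test. Aldh1l2, which oxidizes formyl-tetrahydrofolate in mitochondria, fell short of the threshold at 11.2 ± 1.45 FPKM in OC and 7.63 ± 1.97 in PAKG (log2 fold change -0.56, 95% interval -0.98 to -0.15, limma adjusted p = 0.0758). Its groups did not overlap, and in both groups replicate 2 was the highest library, at 12.83 and 9.88 FPKM. Aldh1l2 was called lower with the replicate block (adjusted p = 0.00535), without PAKG replicate 2 (0.00586) and without replicate 2 of both groups (0.00362). Mthfd2l, a paralog of Mthfd2, was nearly level at 1.84 ± 0.153 and 1.86 ± 0.0964 FPKM (log2 fold change 0.01, interval -0.24 to 0.27). That interval overlaps the interval of Mthfd2, -0.50 to -0.16, and the difference between these paralogs was not tested.

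**Figure D2:**
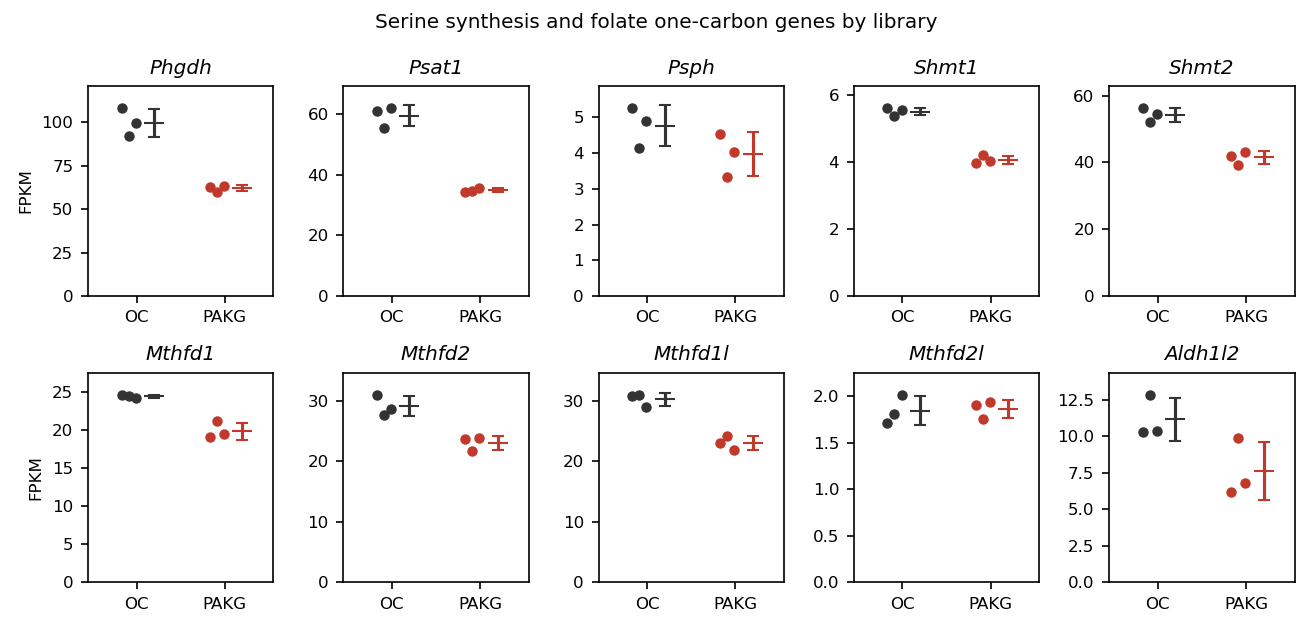
FPKM of the 3 serine synthesis genes and 7 folate genes in each library, with a linear axis from 0. Points are libraries (replicates 1 to 3 from left to right, OC dark, PAKG red), and bars are mean ± SD (n = 3). Psat1 lies at 55.46 to 61.87 FPKM in OC and at 34.38 to 35.66 in PAKG, whereas Psph and Mthfd2l overlap.

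Of the glycine cleavage system, which breaks glycine down in mitochondria, no tested gene passed. Gldc, its decarboxylase, was at 0 to 0.02 FPKM in all 6 libraries and was not tested. Gcsh, the carrier protein that the system shares with lipoate synthesis, was at 49.1 ± 2.68 FPKM in OC and 40.6 ± 3.24 in PAKG. Its groups were apart, yet its log2 fold change of -0.27 did not pass limma's threshold (95% interval -0.47 to -0.08, adjusted p = 0.0665). Amt, the aminomethyltransferase, was low, at 0.68 ± 0.156 FPKM in OC and 0.91 ± 0.0458 in PAKG (log2 fold change 0.39, interval -0.07 to 0.86), with every PAKG library above every OC library.

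In the methionine cycle, the gene that removes the product of methylation reactions was lower and the one that makes the methyl donor did not pass the test. Ahcy, which hydrolyses S-adenosylhomocysteine (ENSMUSG00000027597, chromosome 2, 155059310 to 155074497), lay at 60.56, 50.14 and 54.80 FPKM in OC and 39.35, 35.19 and 38.13 FPKM in PAKG. The groups did not overlap (log2 fold change -0.55 with an SE of 0.09, limma adjusted p = 0.00671). Mat2a, which makes S-adenosylmethionine, was at 49.2 ± 2.03 FPKM in OC and 48.3 ± 4.50 in PAKG, with overlapping groups and a log2 fold change of -0.03 (95% interval -0.23 to 0.17). That sign flips to 0.02 on rescaling to a common total. Mat2a overlaps a weakly expressed transcript, Particl, on the opposite strand. The intervals of Ahcy, -0.76 to -0.34, and Mat2a do not overlap, although the difference between the genes was not tested.

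In transsulfuration, the route from homocysteine to cysteine, the second enzyme was detected and lower. Cbs, the first enzyme, was at 0 to 0.03 FPKM in every library and was not tested. Cth, which releases cysteine from cystathionine (ENSMUSG00000028179, chromosome 3, 157894248 to 157925077), lay at 1.70, 1.68 and 1.89 FPKM in OC and 0.95, 0.89 and 0.66 FPKM in PAKG. All PAKG libraries were below all OC libraries. Cth was differentially expressed, just past the 2-fold limit, with a PAKG mean 0.474 of the OC mean (95% interval of the log2 fold change -1.38 to -0.63, adjusted p = 0.00678). With a pseudocount of 1, rescaling, or without PAKG replicate 3 or OC replicate 3 it fell under the fold limit while remaining lower.

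Creatine synthesis draws on glycine and on the methyl donor, and its first gene was lower. Gatm, which joins arginine and glycine (ENSMUSG00000027199, chromosome 2, 122594467 to 122611303), lay at 1.40, 1.23 and 1.55 FPKM in OC and 0.61, 0.71 and 0.50 FPKM in PAKG. Its groups were apart and its PAKG mean was 0.435 of the OC mean, the lowest ratio of the 14 (log2 fold change -1.08 with an SE of 0.18, limma adjusted p = 0.00703). With a pseudocount of 1, or without PAKG replicate 3, Gatm also fell under the 2-fold limit. Gamt, the methyltransferase that completes creatine, was at 19.6 ± 1.66 FPKM in OC and 24.5 ± 2.23 in PAKG. All 3 PAKG libraries were above all 3 OC libraries, but the log2 fold change of 0.32 did not pass the test (95% interval 0.09 to 0.54, adjusted p = 0.0682). Gamt was called higher under each of the 3 rescalings, with the replicate block, without PAKG replicate 2, and without replicate 2 of both groups.

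Of the genes for asparagine and proline synthesis, Asns alone passed the test. Asns, asparagine synthetase and a classical ATF4 target (ENSMUSG00000029752, chromosome 6, 7675169 to 7693254), lay at 54.68, 49.07 and 53.93 FPKM in OC and 40.24, 33.89 and 39.95 FPKM in PAKG. The groups were apart, with replicate 2 the lowest in each (log2 fold change -0.47 with an SE of 0.09, limma adjusted p = 0.0135). The call was lost without OC replicate 1 or OC replicate 3. Aldh18a1, which starts proline synthesis from glutamate, was at 44.7 ± 1.57 FPKM in OC and 44.05 ± 1.88 in PAKG (log2 fold change -0.02, 95% interval -0.18 to 0.13). Under the 3 rescalings its sign was positive, at 0.00 to 0.02. A processed pseudogene, Gm15801, overlaps it on the same strand. Pycr1, which completes proline, was at 7.49 ± 0.255 and 7.68 ± 0.454 FPKM (log2 fold change 0.03, interval -0.14 to 0.21). Both proline genes overlapped between the groups, and a 2-fold change of either lies outside these intervals.

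**Figure D3:**
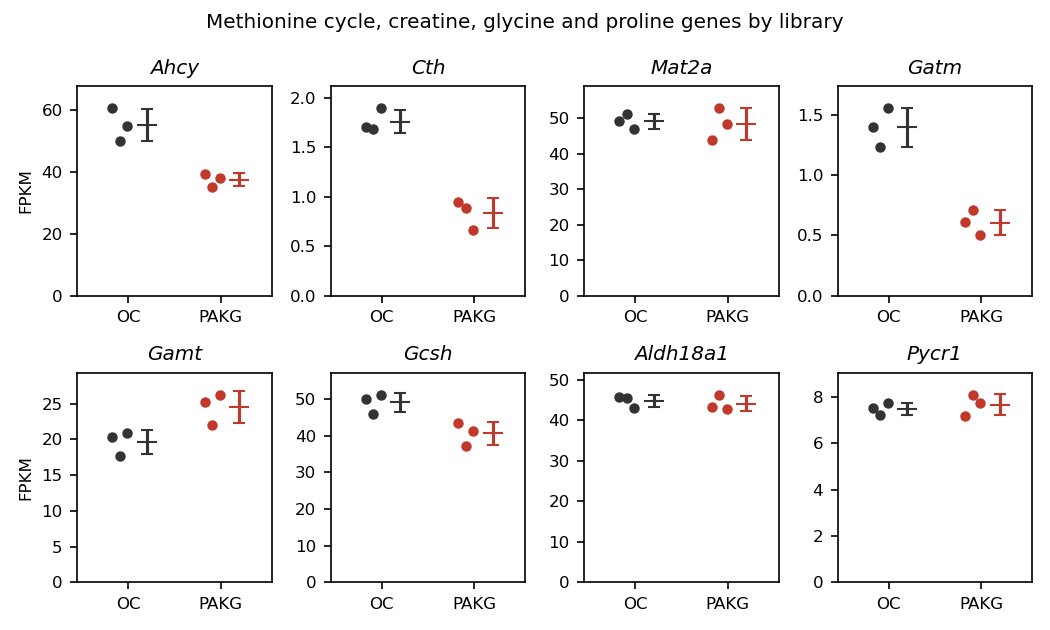
FPKM of 8 genes of the methionine cycle, transsulfuration, creatine, glycine cleavage and proline synthesis by library, with a linear axis from 0. Points are libraries (OC dark, PAKG red) and bars are mean ± SD (n = 3). Cth and Gatm lie at 0.50 to 0.95 FPKM in PAKG and at 1.23 to 1.89 in OC, whereas Aldh18a1 and Pycr1 overlap.

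Among the stress transcription factors and regulators, Atf4, Atf5, Ddit3 and Nupr1 did not pass the test, while Trib3 was lower. Atf4 (ENSMUSG00000042406, chromosome 15, 80255184 to 80257541) was at 103 ± 9.41 FPKM in OC and 100 ± 8.65 in PAKG, with overlapping groups and a log2 fold change of -0.04 (95% interval -0.27 to 0.18, limma adjusted p = 0.825). On rescaling to a common total its log2 fold change was 0.00. In both groups replicate 2 was the lowest library, at 93.99 FPKM in OC and 90.18 in PAKG. Atf5, a related factor that is also controlled at translation, was at 29.9 ± 2.94 and 28.6 ± 3.40 FPKM (log2 fold change -0.06, interval -0.32 to 0.20). Ddit3, which encodes CHOP, ranged from 6.67 to 8.28 FPKM in OC and from 5.96 to 8.88 in PAKG. Atf5 and Ddit3 each overlap a more or similarly abundant gene on the opposite strand, Nup62 and the methionyl-tRNA synthetase gene. Nupr1, a small stress-induced nuclear protein, ranged from 8.92 to 9.49 FPKM in OC and from 9.74 to 12.1 in PAKG. Its groups were apart, but its log2 fold change of 0.26 did not pass (95% interval 0.05 to 0.48, limma adjusted p = 0.107). Nupr1 was called higher on rescaling to a common total, with the replicate block, without PAKG replicate 2 and without replicate 2 of both groups. Trib3, a pseudokinase that is induced by ATF4 and restrains it (ENSMUSG00000032715, chromosome 2, 152337422 to 152344032), lay at 2.73, 2.13 and 1.92 FPKM in OC and 1.68, 1.36 and 1.21 FPKM in PAKG. The groups were apart (log2 fold change -0.63 with an SE of 0.17, adjusted p = 0.0472), but the call was kept under only 5 of 16 alternatives.

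Among stress-induced effectors, Chac1 and Sesn2 were lower. Chac1, which degrades glutathione (ENSMUSG00000027313, chromosome 2, 119351229 to 119354381), lay at 2.48, 2.66 and 3.54 FPKM in OC and 1.69, 1.44 and 2.01 FPKM in PAKG. The lowest OC library was above the highest PAKG library (log2 fold change -0.72 with an SE of 0.17, limma adjusted p = 0.0302), and the call was kept under 10 of 16 alternatives. Sesn2, a leucine sensor that restrains mTORC1 (ENSMUSG00000028893, chromosome 4, 132492032 to 132510501), lay at 22.54, 21.36 and 21.21 FPKM in OC and 18.11, 18.51 and 18.20 FPKM in PAKG. The groups were narrow and apart, with a log2 fold change of -0.25 (SE 0.06, adjusted p = 0.0375), a call kept under 7 of 16. Vldlr, a lipoprotein receptor that ATF4 can induce, was at 3.37 ± 0.0551 FPKM in OC and 3.70 ± 0.526 in PAKG with overlap (log2 fold change 0.13, 95% interval -0.13 to 0.38).

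**Figure D4:**
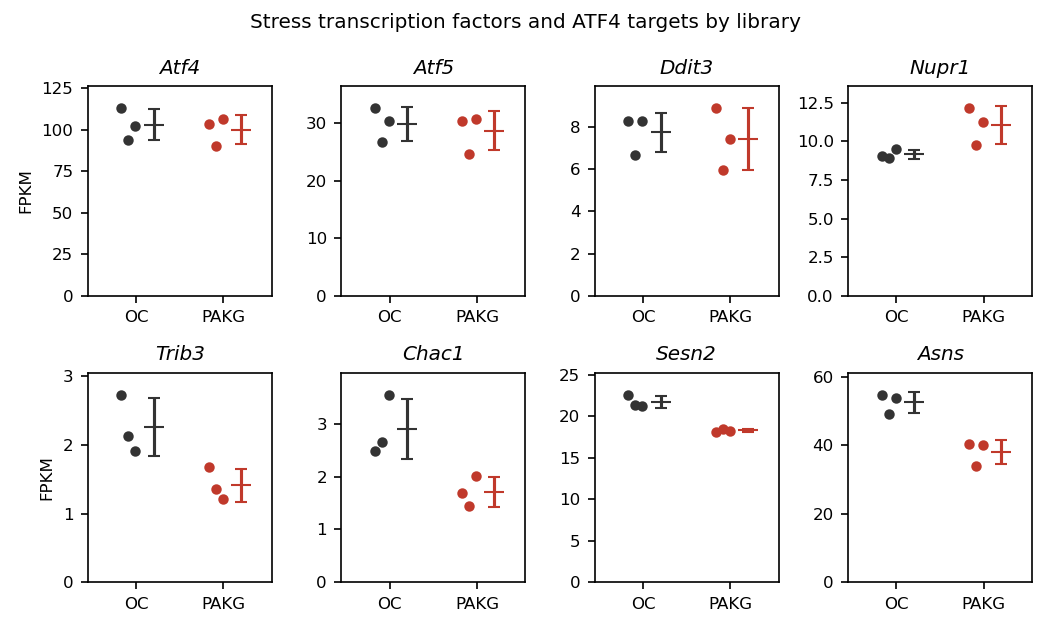
FPKM of 5 stress transcription factors and regulators (Atf4, Atf5, Ddit3, Nupr1, Trib3) and of Chac1, Sesn2 and Asns by library, with a linear axis from 0. Points are libraries (replicates 1 to 3 from left to right, OC dark, PAKG red) and bars are mean ± SD (n = 3). Atf4, Atf5 and Ddit3 overlap and dip at replicate 2 in both groups, whereas Chac1, Sesn2 and Asns are apart.

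None of the 4 amino acid transporters tested among the members was called. The transporter gene Slc7a5, from another list, is given below. Slc38a2, which takes up glutamine, alanine and other small neutral amino acids, was at 30.4 ± 2.17 FPKM in OC and 33.7 ± 3.12 in PAKG (log2 fold change 0.15, 95% interval -0.06 to 0.36). Slc1a4, which exchanges serine and other neutral amino acids, was at 19.8 ± 0.391 and 16.4 ± 1.23 FPKM, with groups apart and a log2 fold change of -0.27 just short of the limma threshold (interval -0.44 to -0.09, adjusted p = 0.0535). With the replicate block, without PAKG replicate 2, without replicate 2 of both groups and with a filter at 1 FPKM, Slc1a4 was called lower. Slc7a1, a carrier of arginine and lysine, ranged from 5.66 to 8.02 FPKM over the 6 libraries. Slc6a9, a glycine transporter, ranged from 2.79 to 3.35 FPKM in OC and from 2.06 to 2.88 in PAKG. Its log2 fold change was -0.35 (95% interval -0.67 to -0.02, limma adjusted p = 0.154). Slc6a9 overlaps B4galt2, the more abundant gene, on the opposite strand. Slc7a3, another cationic amino acid carrier, was at 0.15 to 0.29 FPKM and was not tested.

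Several of these genes hold the letters of the ATF4 response element in their promoter, and stretches are shown so that the genes that were lower and those that were not can be set side by side. The letters searched were TGATGNAA, the core of the C/EBP-ATF response element, and its reverse complement TTNCATCA, in the RefSeq windows of GRCm38.p6 from 250 bases before to 50 after the start of transcription. Of 36 members 33 matched a window by symbol, and 7 of these (21.2%) held the letters, as did 4.51% of all 27025 genes with a window and 2.42% of the 8840 tested genes that matched. Counted by window, the letters stood in 17.9% of the members' 39 windows and in 3.97% of all 32851. The members were chosen in part as ATF4 targets, so these larger shares are not independent of that choice. The letters stood in 3 of 13 members that were lower (Asns, Chac1 and Trib3) and in 4 of 17 tested members that were not called (Nupr1, Pycr1, Slc1a4 and Vldlr). Stretches upstream of the RefSeq start follow for 5 of the 7, read 5′ to 3′ on the gene's strand with the element in capitals. The stretches of Asns, Nupr1 and Vldlr lie inside the gene intervals of GENCODE, which begin further upstream. Another RefSeq window of Vldlr did not hold the letters.

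Asns (lower; chr6:7693210-7693252, minus strand): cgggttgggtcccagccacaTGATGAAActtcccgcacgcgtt
Chac1 (lower; chr2:119351029-119351076, plus strand): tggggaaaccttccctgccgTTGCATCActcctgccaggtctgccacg
Nupr1 (not called; chr7:126625553-126625600, minus strand): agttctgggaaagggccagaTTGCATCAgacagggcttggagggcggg
Pycr1 (not called; chr11:120643824-120643871, minus strand): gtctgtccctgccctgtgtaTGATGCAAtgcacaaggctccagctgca
Vldlr (not called; chr19:27216800-27216847, plus strand): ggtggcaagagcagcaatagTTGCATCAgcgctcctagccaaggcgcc

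The element began 23 bases before the RefSeq start in Asns, 193 in Chac1, 110 in Nupr1, 103 in Pycr1 and 200 in Vldlr. Asns and Pycr1 carry it in the forward direction. In these 5 genes, matches to TGATGNAA on either strand thus stood beside log2 fold changes of -0.47, -0.72, 0.26, 0.03 and 0.13. The base at N was A in Asns and C in the other genes. A match is a description of the sequence and not of binding.

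Other genes of these pathways, from lists that do not hold the members, are set against the same background of 8.73% of all genes lower and 5.97% higher, and no list was tested as a whole. Of 24 further folate and methionine genes tested, 4 were lower and 2 higher. Tyms, which makes thymidylate from a folate-borne carbon, was at 12.9 ± 1.34 FPKM in OC and 8.15 ± 0.346 in PAKG (log2 fold change -0.65, limma adjusted p = 0.00394). Slc46a1, a proton-coupled folate transporter, was higher, at 2.62 ± 0.119 and 3.96 ± 0.498 FPKM (log2 fold change 0.57, adjusted p = 0.0146). Of 19 other ATF4 targets and partners tested, 4 were lower and 2 higher, with a median log2 fold change of -0.18. Slc7a5, the light chain of a large neutral amino acid exchanger, was lower at 43.1 ± 1.25 and 26.1 ± 2.12 FPKM (log2 fold change -0.72, adjusted p = 0.00126). Bcat1, a branched-chain aminotransferase, was lower at 18.0 ± 0.314 and 14.0 ± 0.907 FPKM (log2 fold change -0.36, adjusted p = 0.0158). Map1lc3b, an autophagosome protein, was higher at 12.1 ± 0.656 and 15.9 ± 0.965 FPKM (log2 fold change 0.39, adjusted p = 0.0163). Bcat1, Map1lc3b and Slc46a1 lost their call without PAKG replicate 1, PAKG replicate 3 or OC replicate 3. Bcat1 also lost it without OC replicate 1 and on rescaling to a common total. Tyms and Slc7a5 kept theirs under all 16 alternatives.

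Of 20 cytosolic aminoacyl-tRNA synthetase genes, many of them ATF4 targets, 2 were lower and none higher in the limma test, close to the 8.73% of all genes that were lower. At an unadjusted p under 0.05, 7 were lower and none higher, against 16.8% and 12.0% of all genes. Their log2 fold changes were small, from -0.30 to 0.04 with a median of -0.15. Of the 20, 19 were negative, as were 6989 of the 12590 genes tested. In 10 of them all 3 PAKG libraries lay below all 3 OC libraries, against 19.6% of all genes. Nars was at 54.2 ± 1.11 FPKM in OC and 45.6 ± 0.0608 in PAKG, and Rars at 53.1 ± 1.88 and 44.4 ± 2.25. Both lost their call on rescaling to a common total, and without PAKG replicate 1 or 3 or any single OC replicate. Without PAKG replicate 3 the limma adjusted p was 0.142 for Nars and 0.184 for Rars. Of 16 eIF2α kinases and regulators, the machinery that acts upstream of ATF4, 1 was higher and 15 did not pass, a share near the 5.97% of all genes that were higher. The gene that passed was Ppp1r15a, the stress-induced phosphatase subunit that reverses eIF2α phosphorylation, at 4.01 ± 0.180 FPKM in OC and 5.03 ± 0.155 in PAKG (log2 fold change 0.32, adjusted p = 0.0308), and it lost its call without a filter and without any single library other than PAKG replicate 2 (adjusted p up to 0.128). Of 6 other proline and creatine genes tested, none passed in limma, and 1, Aldh4a1, had an unadjusted p under 0.05.

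Proliferation markers moved with the same groups. All 16 of them were lower with PAKG (median log2 fold change -0.67, range -0.98 to -0.34), and their summed level was 774.2 to 785.7 FPKM in OC and 494.1 to 514.1 in PAKG. Several members serve nucleotide synthesis and are known to be higher in dividing cells. The part of the proliferation and osteoblast markers in the lower levels of the 14 members was not tested. Transcripts of the mitochondrial genome made up 10.84 to 11.88% of OC values and 9.53 to 10.71% of PAKG values, and 12 members were lower when each library was rescaled without them.

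**Figure D5:**
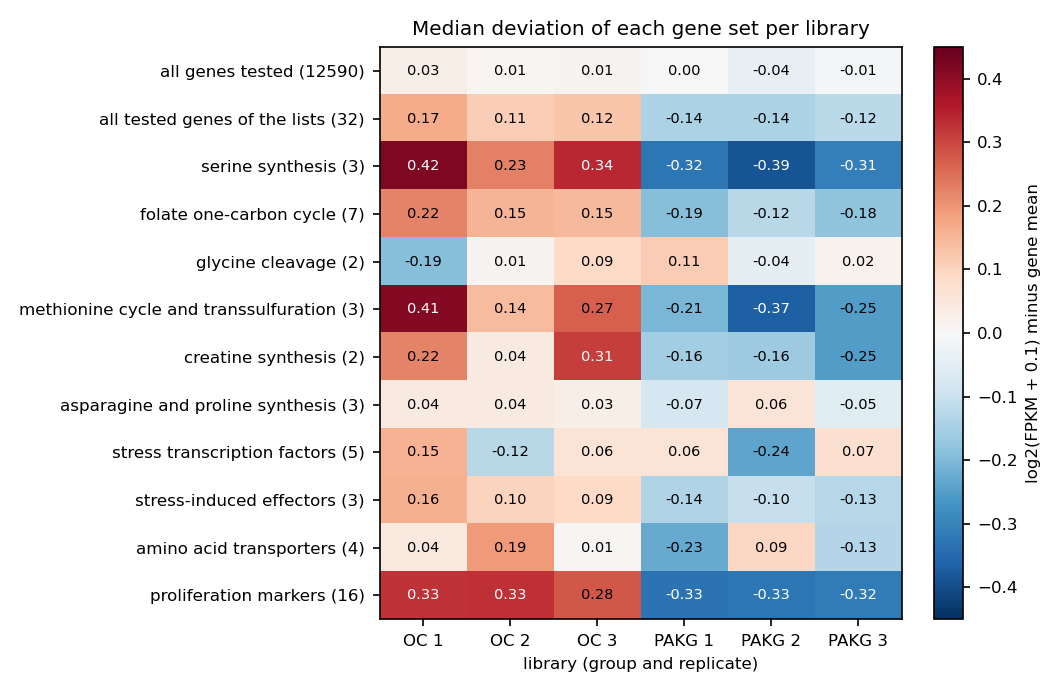
Median, over the tested genes of each list, of log2(FPKM + 0.1) minus the gene's mean over the 6 libraries; the number of genes is in parentheses. Serine synthesis lies at 0.23 to 0.42 in OC and -0.39 to -0.31 in PAKG, and the proliferation markers at 0.28 to 0.33 and -0.33 to -0.32. The list of stress transcription factors, which also holds Trib3, is lowest in replicate 2 of both groups.

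The lists were also compared across libraries by the median deviation of their genes. The serine synthesis, folate, methionine and stress effector lists were each lower in every PAKG library than in every OC library. So was the creatine list by this median, although its 2 genes, Gatm and Gamt, went in opposite directions. Its summed FPKM was instead higher in every PAKG library, at 18.94 to 22.38 in OC and 22.66 to 26.69 in PAKG. The stress transcription factor list, which also holds the pseudokinase Trib3, was at 0.155, -0.125 and 0.061 in OC replicates 1 to 3. It was at 0.063, -0.237 and 0.071 in PAKG replicates 1 to 3, so replicate 2 was lowest in both groups and the groups overlapped. Among the transporters, replicate 2 was the highest library in both groups. The median over all genes tested was also lower in every PAKG library, at 0.010 to 0.025 in OC and -0.037 to 0.002 in PAKG.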

How the data were processed

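RNA-Seq values of 6 libraries of MC3T3-E1 cells were used, 3 PAKG and 3 OC, grouped by the sample titles. The authors deposited gene-level FPKM for each library, rounded to 2 decimals. Per the submitters' processing notes, the build was GRCm38 and the tools were HISAT2, StringTie, DESeq2, cutadapt and FastQC, for which the sources used here give neither versions nor strand settings. FPKM are not counts, so the count model of the study was replaced by limma 3.58.1 in R 4.3.3 (lmFit, eBayes with trend, 2-sided, Benjamini-Hochberg adjustment over all 12590 genes averaging 0.5 FPKM or more) on log2(FPKM + 0.1), a scale that understates the change of low genes. SEs and 95% intervals are limma's moderated ones. Coordinates come from GENCODE M21 on GRCm38, which held 99.76% of the gene IDs, and promoter windows from RefSeq. Python 3.11.15 (pandas 2.3.3, numpy 2.4.6, matplotlib 3.10.9) served for summaries and plots.

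The members and the lists were chosen with earlier results of these data known, and no set test was run. All members are named. Members that passed are given in every library, up to 2 of the others per role with their interval, and up to 3 genes per other list by adjusted p. One item that this rule would name is not reported here. The fit was first tested on simulated data. It recovered 52% of genes simulated at a log2 fold change of 0.5 and 90% at 1, with 12 false calls among 165. A gene that did not pass is therefore not shown to be unchanged. Depth was estimated from the spacing of low values of short genes, and whole reads were not recovered. Deviations from the group means correlated at 0.192 to 0.430 between samples of the same replicate number, over the limit of 0.1 in all 3 pairs, and at -0.312 to 0.138 between different numbers, where 1 of 6 pairs (PAKG replicate 3 with OC replicate 1) also passed that limit. By the rule for same-numbered pairs, the number was also fitted as a block. The sources do not say what the number marks.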

Additional observations from a re-analysis of the deposited data

How the results depend on the processing

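Under 16 alternatives (pseudocounts, filters, scalings, no mean-variance trend, the replicate block, libraries left out), the 14 lower members gave 224 values, of which 182 were still lower and called, 42 lower but not called and 0 turned in sign. Leaving out single libraries gave 7 to 14 lower members, 0 to 2 higher and 0 to 2 past both thresholds. The lowest counts of lower members came without OC replicate 3 (7), PAKG replicate 3 (8) and OC replicate 1 (9). Higher members numbered 2 on rescaling to a common total, 1 with median-ratio scaling, 1 with a common total without mitochondrial genes, 2 with the replicate block and 2 without replicate 2 of both groups. Members past both thresholds numbered 0 with a pseudocount of 1, and 1 under each of the 3 rescalings. The block ended no call of a lower member. Over all genes, 751 were higher and 1099 lower, against 871 and 764 on rescaling to a common total, 900 and 955 with median-ratio scaling and 1554 and 2157 with the block.

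Only members with a log2 fold change near 0 changed sign, and none of them was called. On rescaling to a common total the log2 fold change was 0.00 for Atf4, 0.02 for Aldh18a1 and 0.02 for Mat2a. With median-ratio scaling it was 0.01 for Aldh18a1 and 0.00 for Mat2a, and with a common total without mitochondrial genes 0.00 for Aldh18a1. Pycr1 was at -0.03 without replicate 2 of both groups. Leaving out single libraries gave -0.04 to 0.07 for Mthfd2l, -0.11 to 0.03 for Atf4, -0.14 to 0.04 for Atf5, -0.21 to 0.08 for Ddit3, 0.00 to 0.08 for Pycr1 and -0.09 to 0.04 for Mat2a. The cause of these shifts was not tested. The 3 libraries per group and the FPKM scale, which carries no exact read counts, limit the precision, most of all for Cth, Gatm, Trib3 and Chac1, which lay under 4 FPKM.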
